A study of Mus musculus with 21 samples.

Results

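Mouse multipotent progenitors (MPPs) that carried a Bach2 retroviral vector and had become B220+ in a B-lineage culture were compared with MPPs that carried the same vector and had not been through that culture. The comparison took 6 of the 21 arrays of the series, chosen by sample title: 3 of B220+ Bach2-vector cells and 3 of Bach2-vector MPPs. The MPPs were wild-type cells sorted as Lin-, c-kit+, Sca-1+ and Flt3mid, pooled from 4 mice in each experiment. All were stimulated overnight with SCF (50 ng/ml), IL-3 (5 ng/ml) and IL-6 (10 ng/ml) and spin-infected the next day. Bach2-vector MPPs were infected with the Bach2-GFP vector, spent 2 days in a multilineage culture and were sorted as GFP+. The B220+ cells were infected with the same vector, spent 24 h in the multilineage culture and 6 days in the B-lineage culture, and were sorted as GFP+ and B220+. Another group, MPPs with the empty MSCV-GFP vector after the same 2 days of multilineage culture, gave 3 control-vector arrays that entered the fit and are shown for reference. Culture condition, total culture time and the B220 sort differ together between the compared groups, so their parts in any difference cannot be told apart. No B220+ cells with the empty vector were analysed here.

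MPPs are bone marrow progenitors that have lost long-term self-renewal and can still give rise to lymphoid and myeloid cells. Commitment to the B lineage is known to proceed from lymphoid-primed cells, which express Dntt, Flt3 and Il7r, through Ly6d-positive progenitors to pro-B cells, where EBF1 and PAX5 switch on Cd79a and the surrogate light chain. Bach2 and Bach1 are transcription repressors that bind AP-1-like and Maf recognition elements, and they are known for silencing myeloid and oxidative-stress genes. B220 is a form of CD45 carried by B-lineage cells and also by plasmacytoid dendritic cells and some activated lymphocytes.

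RNA was amplified in 2 rounds and hybridised with Cy3 to 1-colour Agilent arrays. Levels below are log2 signals minus the array's own 75th percentile, so a level of 0 is the signal that 75% of spots stay under, and a difference of 1 is 2-fold. Between 62.6% and 71.5% of non-control spots were well above background on the B220+ arrays and between 71.0% and 81.4% on the Bach2-vector arrays, and none was saturated. The number of arrays limits the precision. Because the labels do not say that replicates came from separate pools of mice, p-values measure the spread between these samples, which may be technical. The 3 B220+ arrays and replicate 1 of both vector groups lay on 1 slide, where the median signal was 103.4 to 117.3, and the other 4 arrays lay on another slide, where it was 208.7 to 237.2. B220+ replicate 3 stood apart from the other B220+ arrays: its deviations from the group mean correlated with those of replicates 1 and 2 at -0.76 and -0.77, against 0.17 between these (43426 probes, a description that the shared group mean affects). The Y-linked Ddx3y, chosen after its values were seen, was at -8.69 in B220+ replicate 3 against 1.59 and 1.28 in replicates 1 and 2. The same replicate number stood apart in both vector groups, at -9.32 for Bach2-vector replicate 3 and -9.09 for control-vector replicate 3. The X-linked Xist, chosen in the same way, was at -2.13 in B220+ replicate 3 against -5.46 and -5.49 in replicates 1 and 2. It was also highest in replicate 3 of the Bach2-vector (-1.49) and control-vector (-2.23) groups. The cells of replicate 3 thus differed from the others in these 2 genes in all 3 groups.

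Bach2 itself was read first, as a check of the vector. The brighter Bach2 probe stood at -0.92, -2.03 and -2.57 in the 3 Bach2-vector MPP arrays, at -2.75, -2.49 and -4.10 in the B220+ arrays and at -3.87, -2.96 and -2.15 in the control-vector arrays. These 3 groups overlapped, and the B220+ minus Bach2-vector difference was -1.27 ± 0.61 (log2, SE, limma adjusted p = 0.277). A dimmer Bach2 probe was at -8.57, -7.11 and -6.34 in the control-vector arrays, at -1.25, -3.57 and -3.90 in the Bach2-vector arrays and at -5.12, -5.02 and -1.54 in the B220+ arrays. On that probe every array with the Bach2 vector exceeded every control-vector array, and the 2 Bach2-vector groups overlapped (difference -0.98 ± 1.08, adjusted p = 0.611). Which part of the transcript each probe reads, and whether the vector carries it, is not given in the sources used here. Bach1, the ubiquitous relative of Bach2, was at 1.07, 0.98 and 0.60 in the MPPs and at 1.67, 2.30 and -0.15 in the B220+ cells (0.39 ± 0.56, adjusted p = 0.706).

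Of 43426 probes tested, 1172 passed (2.70%), 423 higher (0.974%) and 749 lower (1.72%). Across 17008 genes tested, 662 (3.89%) differed between B220+ Bach2-vector cells and Bach2-vector MPPs by limma at an adjusted p under 0.05, of which 224 were higher in the B220+ cells (1.32% of genes) and 438 lower (2.58%). Each of these 662 differed by at least 2.12-fold. The median difference over all genes was -0.25, and 34.5% of genes had a positive difference. This offset moved with the scaling, to 0.06 with each array scaled by its median, -0.07 with quantile normalization, -0.11 with normexp background correction and -0.10 with the slide as a block. The share of calls that were higher, 33.8%, was accordingly 54.1% with median scaling, 42.7% with quantile normalization and 41.8% with the slide as a block. List medians below are therefore read against -0.25, and list counts against 1.32% of genes higher and 2.58% lower.

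The slide was a technical factor partly tied to the groups, because only Bach2-vector replicate 1 shared a slide with the B220+ arrays. In both vector groups the slide divided replicate 1 from replicates 2 and 3. A slide block therefore cannot tell a slide effect apart from a difference of replicate 1, here and in all values below. With the slide as a block, 452 genes passed (2.66%), 189 of them higher (1.11%) and 263 lower (1.55%). Of the 662 calls, 343 passed again. Values within the shared slide set the mean of the 3 B220+ arrays against 1 Bach2-vector array, and no test was run on them. Counts also rested on single arrays: 276 genes passed without Bach2-vector replicate 2, 277 without Bach2-vector replicate 3, 288 without B220+ replicate 2, 340 without B220+ replicate 1 and 1063 without B220+ replicate 3. Of the 70 named genes that passed, 33 also passed with the slide as a block and without each of the 6 arrays in turn, and the results below lead with these. Ngp, 1 of the 33, met the filter on dim probes only with the B220+ arrays counted. Another 4, Slc16a14, Klrk1, Cd3g and Il13, were above background on the B220+ arrays only, and leaving out a B220+ array took the probe below the filter, so only 3 of the 6 omissions could be tested.

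**Figure D1:**
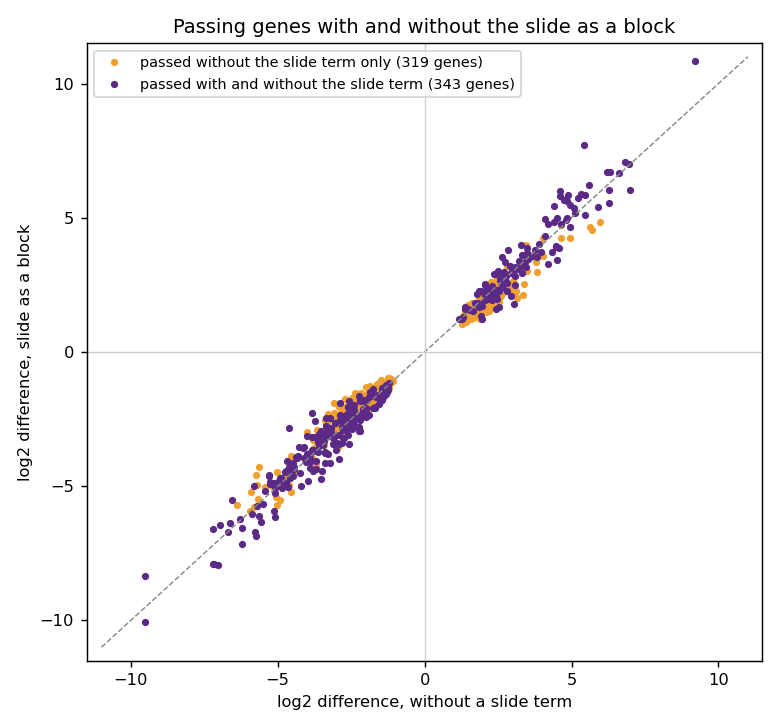
Each point is 1 of the 662 genes that passed, with its log2 difference (B220+ Bach2-vector cells minus Bach2-vector MPPs) without a slide term on the horizontal axis and with the slide as a block on the vertical axis. The 343 dark points passed both ways, the 319 light points only without the slide term, and every point lies in the quadrant of its sign.

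The labels were set against defining markers of the cell types that the cultures could hold. MPP markers gave no difference that passed. Kit, the stem cell factor receptor, was at 3.34 to 3.98 in the MPPs and 3.62 to 3.93 in the B220+ cells, and Flt3, the receptor that defines lymphoid-primed progenitors, at 3.98 to 4.76 and 4.15 to 4.77. A dimmer Flt3 probe was lower in every B220+ array (-1.22 ± 0.30, adjusted p = 0.0733). Ly6a, which encodes Sca-1, was at 0.45 to 1.27 and 0.82 to 1.17. Cd34, a sialomucin of progenitors, was at 5.40, 6.03 and 6.21 in the MPPs and lower, without overlap, at 5.05, 5.22 and 4.99 in the B220+ cells (-0.79 ± 0.35, adjusted p = 0.246). Among the defining genes of committed B cells, Pax5 on its brighter probe lay between -6.07 and -4.92 in all 6 arrays and Cd79a between -5.59 and -3.87, with no difference that passed (adjusted p = 0.355 and 0.781). A dimmer Pax5 probe was at -5.25, -6.99 and -6.81 in the MPPs and -5.11, -4.90 and -6.28 in the B220+ cells (0.92 ± 0.53, adjusted p = 0.347). That probe was above background on 1 of 3 MPP arrays and on all 3 B220+ arrays. Ebf1 was well above background on 1 of the 3 B220+ arrays and on no MPP array and was not tested. These defining markers of committed B cells were therefore low or undetected in the cells labelled B220+, while Cd79b, the other chain of the B-cell receptor complex, was high in both groups, at 3.17 to 3.42 in the MPPs and 3.24 to 3.93 in the B220+ cells. Ptprc, the gene of CD45 whose B220 form was the basis of the sort, was at 1.21, 2.17 and 0.41 in the MPPs and 1.29, 1.70 and 1.90 in the B220+ cells (0.37 ± 0.42, adjusted p = 0.623). The array does not separate its splice forms.

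The early lymphoid gene Dntt, which encodes the terminal transferase that adds bases at V(D)J joints, had the smallest adjusted p of all named genes. It stood at -1.35, -1.14 and -1.28 in the 3 Bach2-vector MPP arrays and at 5.41, 5.67 and 5.65 in the B220+ arrays, and at -1.93, -1.22 and -1.51 with the control vector. The 3 B220+ arrays were all far above the other 6, which lay together. The rise was 6.83 ± 0.26 (log2, 114-fold, limma adjusted p = 4.07e-05), 7.07 with the slide as a block and 6.93 within the shared slide.

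Ly6d, which marks B-biased common lymphoid progenitors, rose from -1.94, -3.62 and -3.02 to 3.83, 3.77 and 2.66 (6.28 ± 0.63, adjusted p = 0.00199). Blnk, the adaptor that couples the pre-B receptor to its kinases, was at -0.15, -1.58 and -3.20 in the MPPs and at 3.23, 3.23 and 2.39 in the B220+ cells. The Bach2-vector arrays already spread over about 3 log2 units for Blnk and lay above the control-vector arrays (-4.44, -4.62 and -4.12), and the B220+ arrays were higher again (4.59 ± 0.66, adjusted p = 0.00921, 3.87 with the slide as a block). Spib, an ETS factor of B cells and plasmacytoid dendritic cells, rose from -1.84, -3.84 and -2.63 to 1.40, 1.03 and 0.78 (3.84 ± 0.47, adjusted p = 0.00455). No B220+ array overlapped an MPP array for any of these genes, where 7.41% of all genes were higher in this way and 21.8% lower.

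Cd22, an inhibitory co-receptor of the B-cell receptor, was tightly grouped at -0.74, -0.88 and -0.72 in the MPPs and at 1.03, 0.40 and 0.91 in the B220+ cells (1.56 ± 0.25, adjusted p = 0.0153). Its call was lost without Bach2-vector replicate 2 or 3 or B220+ replicate 1 (adjusted p up to 0.0743). Fcrla, an intracellular Fc receptor-like protein of B cells, rose by 4.64 ± 0.72 (adjusted p = 0.0136), a call lost with the slide as a block (0.0685) and without Bach2-vector replicate 3 or B220+ replicate 1 or 2 (up to 0.0589). Il7r, the interleukin-7 receptor, was at -2.25, -2.85 and -2.72 in the MPPs and 0.07, 0.79 and -0.65 in the B220+ cells, and Irf8 at 4.70, 4.24 and 3.91 against 5.61, 6.06 and 5.29. Neither of these genes overlapped between the groups and neither passed (differences 2.68 ± 0.60 and 1.37 ± 0.30, adjusted p = 0.0552 and 0.0530). Both came under 0.05 without B220+ replicate 3, at 0.0406 and 0.0334.

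Other genes of the same lists were lower. Vpreb3, a surrogate light chain-associated protein, fell from -2.21, -2.80 and -2.03 to -4.04, -4.60 and -5.25 (-2.29 ± 0.41, adjusted p = 0.0239, lost at 0.0883 with the slide as a block and without any Bach2-vector array or B220+ replicate 2, up to 0.0944). The surrogate light-chain genes Vpreb1 and Vpreb2 were at -1.82 ± 0.59 and -2.39 ± 0.78 relative to the MPPs and did not pass (adjusted p = 0.149 and 0.153). The B220+ levels of all 3 genes were near those with the control vector. Vpreb3 was at -4.94, -4.33 and -3.85 there. The control-vector means of Vpreb1 and Vpreb2 were -0.53 and -3.06, against -0.74 and -3.57 in the B220+ cells. Tnfrsf13c, the BAFF receptor that mature B cells need, fell from 2.85, 2.82 and 3.11 to -0.12, -0.04 and -1.02 (-3.32 ± 0.40, adjusted p = 0.00442), which was near its control-vector levels of -0.64, -0.64 and 0.56. A dimmer Tnfrsf13c probe gave a difference of -1.06 without passing (adjusted p = 0.0746). Cd180, a Toll-like receptor relative on B cells and dendritic cells, fell by 3.73 ± 0.59 (adjusted p = 0.0142, 0.0612 with the slide as a block, and up to 0.0605 without Bach2-vector replicate 2 or 3).

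Over whole lists, 1 of 18 measured B-lineage transcription regulators rose and none fell, 2 of 18 genes of the pre-B receptor, its signalling and recombination rose and 1 fell, and 3 of 23 B-cell surface genes rose and 2 fell. Against 1.32% of all genes higher and 2.58% lower, these are 6 and 3 genes in all, and the list medians were 0.28, -0.04 and 0.20 against -0.25 for all genes. Recombinase Rag1 was at -5.24, -4.39 and -8.90 in the B220+ cells and -9.0, -7.48 and -7.16 in the MPPs, and was above background on 2 and 1 of these arrays (adjusted p = 0.387). Igll1, the surrogate light chain's constant part, lay between -3.84 and -2.85 in all 6 arrays.

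**Figure D2:**
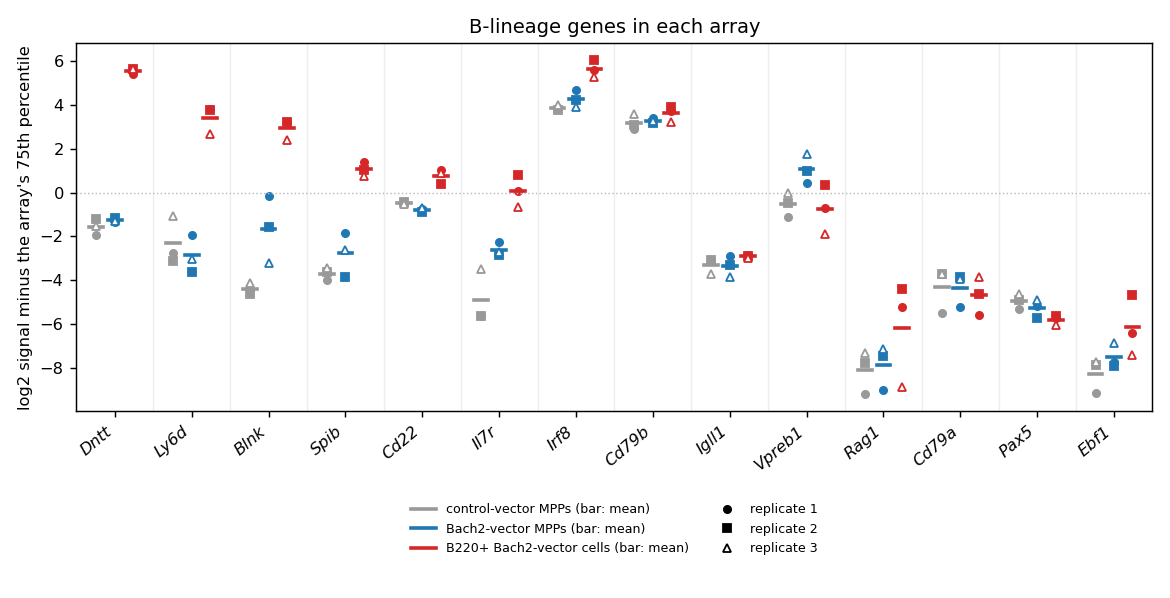
Log2 signal minus the array's 75th percentile (vertical axis) for 14 B-lineage genes in control-vector MPPs, Bach2-vector MPPs and B220+ Bach2-vector cells, with 1 symbol for each replicate and a bar at the mean of 3 arrays. Dntt, Ly6d, Blnk, Spib and Cd22 lie higher in every B220+ array than in any MPP array, whereas Pax5 and Cd79a stay at -3.71 or lower in all 9 arrays.

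Promoters of the genes named here were searched for 4 motifs, because EBF1, PU.1, C/EBP and Bach factors act in these lineages. The window was the 250 bases before the RefSeq gene start (build GRCm38.p6), read on both strands. The motifs were the EBF1 palindrome TCCCNNGGGA, the AP-1 and Bach core TGANTCA, the C/EBP palindrome TTNCGNAA and the PU.1 core GAGGAA. A promoter was found for 55 of the 70 named genes that passed. The EBF1 palindrome was present in 1.1% of the 181 risen genes with a promoter, 1.72% of the 349 fallen ones and 0.914% of all 27025 genes in the promoter table. For the AP-1 and Bach core these shares were 7.73%, 9.17% and 7.82%, for the C/EBP palindrome 3.31%, 2.87% and 2.3%, and for the PU.1 core 30.4%, 29.5% and 25.9%. In the 12994 tested genes with a promoter that did not pass, the 4 motifs had shares of 1.03%, 6.48%, 3.11% and 25.8%, in the same order. Among named genes that rose, only Cd22 held the EBF1 palindrome, 49 bases before its start at chr7:30879029-30879278 (minus strand). Among those that fell, only Hic1 held it, 97 bases before 1 of its 2 starts in the table, in chr11:75168153-75168402 (minus strand), and the window of the other start (chr11:75170256-75170505) did not. A match describes the sequence and does not show a binding site. Both windows are given because they carry the same palindrome, in capitals, in a gene that rose and in a gene that fell:
Cd22: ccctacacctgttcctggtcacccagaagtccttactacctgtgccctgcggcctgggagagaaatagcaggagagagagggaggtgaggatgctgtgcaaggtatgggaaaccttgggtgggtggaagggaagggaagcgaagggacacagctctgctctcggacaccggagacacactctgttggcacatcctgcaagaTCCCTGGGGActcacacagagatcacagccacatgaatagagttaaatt
Hic1: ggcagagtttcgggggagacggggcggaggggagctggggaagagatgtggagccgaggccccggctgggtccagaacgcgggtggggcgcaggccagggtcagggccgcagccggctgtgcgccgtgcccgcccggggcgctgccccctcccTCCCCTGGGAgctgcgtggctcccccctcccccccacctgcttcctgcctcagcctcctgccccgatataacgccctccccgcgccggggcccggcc

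Lymphoid receptor genes outside the B lineage were among the larger rises. Cd2, an adhesion receptor of T, NK and some B-lineage cells, rose from -6.73, -6.34 and -5.88 to -1.33, -0.68 and 1.65 (6.20 ± 0.69, adjusted p = 0.00296), and a dimmer Cd2 probe, above background on 1 of 3 Bach2-vector arrays, was higher in every B220+ array as well. Klrk1, which encodes the activating receptor NKG2D, was not well above background in any MPP array and was at -2.59, -2.54 and -3.18 in the B220+ cells, at least 14.5-fold higher. Cd3g, a chain of the T-cell receptor complex, was likewise above background on the B220+ arrays only, at -4.08, -4.11 and -2.83, at least 7.76-fold higher. Such bounds set the bright group's mean against the higher, on each dim array, of the probe's own signal and the lowest signal that was well above background. Both genes met the filter on dim probes only through the B220+ arrays, so no p is given for them.

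Il18rap, a chain of the interleukin-18 receptor, rose from -0.86, -1.44 and -1.87 to 0.65, 0.85 and 1.66 (2.44 ± 0.36, adjusted p = 0.0102). Its partner Il18r1 was at -5.59, -2.73 and -2.83 in the MPPs and 1.56, 2.06 and 1.53 in the B220+ cells (5.43 ± 1.13, adjusted p = 0.0419). The Il18r1 call was lost without any 1 of the 6 arrays (up to 0.13) and held with the slide as a block, where the rise was 7.71 (adjusted p = 0.0011). Cd3d passed at 1.40 ± 0.29 (adjusted p = 0.0441) and was lost with the slide as a block (0.115) and without any 1 array (up to 0.15). Il2ra, the interleukin-2 receptor alpha chain, fell by 2.56 ± 0.48 (adjusted p = 0.0276, 0.0783 with the slide as a block and up to 0.105 without Bach2-vector replicate 1 or 3 or B220+ replicate 1 or 2).

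Most genes of the T and NK lists did not pass. Of 20 T-lineage genes, 3 rose and 1 fell, and of 19 NK and innate lymphoid genes, 3 rose and none fell, against 1.32% of all genes higher and 2.58% lower. Cd3g and Klrk1 are counted among these rises, though they could be tested only through the B220+ arrays. Their medians were -0.14 and 0.26, and 0.10 and 0.97 with the slide as a block. Cd3e was at -2.29 to -2.03 in the B220+ cells against -1.63 to -1.29 in the MPPs (adjusted p = 0.23). The T-cell regulator Bcl11b was above background on 1 of 3 B220+ arrays and 2 of 3 MPP arrays, and Ncr1, a defining NK receptor, on no array of either group. Klrd1, the NK receptor CD94, was high in both groups, at 3.55 to 4.53 in the MPPs and 4.69 to 5.74 in the B220+ cells, against -1.72 to 1.02 with the control vector, and its difference did not pass (1.03 ± 0.65, adjusted p = 0.382).

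The largest rise of all named genes was in an eosinophil granule gene. Prg2, which encodes the major basic protein of eosinophils and basophils, went from -7.64, -5.79 and -5.64 in the MPPs, where it was above background on 2 of 3 arrays, to 2.77, 2.33 and 3.45 in the B220+ cells. Its rise was 9.21 ± 0.88 (591-fold, limma adjusted p = 0.00168), 10.84 with the slide as a block and 10.49 within the shared slide. Prg3, its homologue, rose from -4.49, -4.40 and -4.87 to 0.46, 1.25 and 1.30 (5.59 ± 0.57, adjusted p = 0.00209). In both genes all 3 B220+ arrays lay more than 4 log2 units above every MPP array.

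Prss34, a basophil and mast-cell protease, rose from -3.67, -3.72 and -2.86 to 3.04, 1.29 and 5.29 (6.63 ± 0.85, adjusted p = 0.00535). Il13, a type 2 cytokine, was not above background in the MPPs and was at -2.99, -4.96 and -2.46 in the B220+ cells, at least 8.92-fold higher, and met the filter on dim probes through the B220+ arrays only. Hdc, the histidine decarboxylase gene that makes histamine, was at 3.71, 4.05 and 4.06 in the MPPs and 4.91, 5.42 and 5.81 in the B220+ cells, without overlap (1.44 ± 0.31, adjusted p = 0.0505, 0.0407 with the slide as a block). Epx, the eosinophil peroxidase gene, chosen after its values were seen, had a difference of 0.96 (adjusted p = 0.358), and Cpa3 and Mcpt8, a mast-cell carboxypeptidase and a basophil protease, at 0.02 and 0.26 (adjusted p = 0.993 and 0.768). Over the list of 23 mast-cell, basophil and eosinophil genes, 17 differences were positive, and the median was 0.88 against -0.25 for all genes. Within it 4 genes rose and none fell (1.32% and 2.58% of all genes), and the rise of Il13 could be tested only through the B220+ arrays. With the slide as a block 6 rose, Hdc and Fcer1a in addition, against 1.11% of all genes, and the median was 1.38.

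Levels of this list were uneven among the B220+ arrays. Its mean level was -0.83, -1.66 and 0.26 in the 3 B220+ arrays and -3.48, -2.28 and -2.37 in the Bach2-vector MPPs, so that every B220+ array was above every MPP array and replicate 3 was the highest. The IgE receptor chain Fcer1a showed this most, at 3.25, -1.59 and 5.05 in the B220+ cells and -9.01, -2.27 and -2.06 in the MPPs, where the low value was that of the array on the shared slide. Its difference of 6.68 ± 2.33 did not pass (adjusted p = 0.174) and passed with the slide as a block (10.66, adjusted p = 0.0363). Ms4a2, the beta chain of the same receptor, was at -0.87, -2.34 and 1.01 against -6.73, -2.31 and -4.25. In such bulk RNA, more cells of a type and more RNA per cell cannot be told apart, and whether cells of these types were in the B220+ sort was not tested.

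The neutrophil lists were read by granule stage. Of 22 later granule and cystatin genes, 6 rose and none fell (1.32% and 2.58% of all genes). Ngp, counted among these rises, could be tested only with the B220+ arrays counted in the filter. Of the list's differences, 20 of 22 were positive, against 34.5% of all genes. The list median was 1.39, which was 1.64 above that of all genes, 1.65 above it with median scaling and with quantile normalization, 1.54 above it with normexp background correction and 0.80 above it with the slide as a block. Of 11 primary granule genes, none rose and 1 fell, against 1.32% and 2.58% of all genes (median -0.07).

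Camp, the cathelicidin gene, was at -2.79, -4.37 and -1.74 in the MPPs and at 2.66, 3.62 and 2.51 in the B220+ cells (5.90 ± 0.75, adjusted p = 0.00528). Fcnb, which encodes ficolin B, rose from -4.99, -5.61 and -5.07 to -0.37, -0.81 and -1.11 (4.46 ± 0.41, adjusted p = 0.00148). Chil3, a chitinase-like protein of myeloid precursors, rose from -1.13, -2.0 and 1.39 to 5.21, 4.09 and 5.35 (5.46 ± 0.76, adjusted p = 0.00824). The groups did not overlap for these genes, and the B220+ levels of Camp, Fcnb and Chil3 were also above all control-vector arrays. This did not hold for the list as a whole. Its mean level was -1.59, -2.99 and -1.56 in the Bach2-vector MPPs and -0.21, -0.37 and 0.28 in the B220+ cells. With the control vector it was 0.68, -0.51 and -0.32, a range that holds all 3 B220+ arrays.

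Ngp, the neutrophilic granule protein gene, was above background on 1 Bach2-vector array and 1 control-vector array. It was at -0.79, -1.25 and -0.83 in the B220+ cells (difference 6.28 ± 0.85). It met the filter on dim probes only with the B220+ arrays counted, so no p is given for it. Itgb2l, a neutrophil integrin chain, rose by 3.30 ± 0.41 (adjusted p = 0.0047). Anxa1, an anti-inflammatory annexin, rose by 1.31 ± 0.23 (adjusted p = 0.021), a call lost without 5 of the 6 arrays (all but B220+ replicate 3, up to 0.0806). Ltf, the lactoferrin gene, and S100a8 were at 0.23, 0.74 and 1.83 and at 3.86, 3.19 and 4.38 in the B220+ cells, each above every Bach2-vector MPP array, and did not pass (adjusted p = 0.188 and 0.096). With the control vector Ltf was at -0.38, -4.17 and -2.56, and S100a8 at 4.05, 3.42 and 3.78, overlapping its B220+ levels. The primary granule genes Mpo and Elane were high in both groups, with Mpo at 6.43 to 6.56 in the MPPs and 6.59 to 6.90 in the B220+ cells. Prtn3, which encodes proteinase 3 of primary granules, fell from 5.01, 5.13 and 5.28 to 3.14, 3.08 and 4.09 (-1.70 ± 0.33, adjusted p = 0.0308, 0.0965 with the slide as a block, lost without each array but B220+ replicate 3, up to 0.112).

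**Figure D3:**
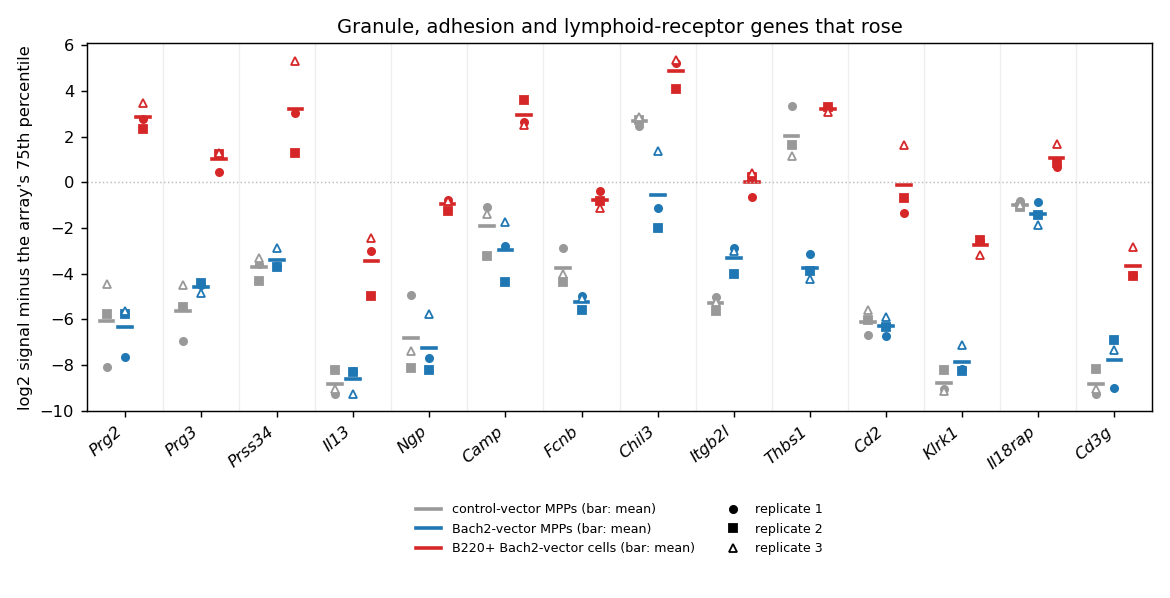
Log2 signal minus the array's 75th percentile (vertical axis) for 14 genes that rose, in control-vector MPPs, Bach2-vector MPPs and B220+ Bach2-vector cells, with 1 symbol for each replicate and a bar at the mean of 3 arrays. Prg2 rises furthest (9.21), and Thbs1 in the B220+ cells lies at the level of the control-vector MPPs rather than above it.

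Thbs1, which encodes the matrix glycoprotein thrombospondin 1, was low only in the Bach2-vector MPPs. It stood at 3.35, 1.63 and 1.14 with the control vector, at -3.16, -3.90 and -4.23 in the Bach2-vector MPPs and at 3.26, 3.31 and 3.07 in the B220+ cells. The B220+ arrays lay at the upper end of the control-vector range, and their difference from the Bach2-vector MPPs was 6.98 ± 0.54 (adjusted p = 0.000968). Sirpb1b, a signal-regulatory protein of myeloid cells, had a like order, at -0.41, -1.86 and 0.40, then -5.14, -8.26 and -8.47 (above background on 1 of these arrays), then -1.14, -0.68 and -2.94 (5.70 ± 0.99, adjusted p = 0.0204, 0.0872 with the slide as a block and up to 0.0872 without Bach2-vector replicate 2 or 3 or B220+ replicate 1 or 2). Mmp8, the neutrophil collagenase gene, chosen after its values were seen, was in contrast at 3.32, 1.70 and 2.11 with the control vector and stayed low in both Bach2-vector groups, at -2.45, -4.85 and -3.85 and at -2.73, -3.10 and -2.61 (0.91, adjusted p = 0.412).

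Most monocyte genes did not pass. Of 29 monocyte and macrophage genes, 1 rose and none fell (1.32% and 2.58% of all genes). Their differences were positive in 14 and negative in 15, with a median of -0.04. The marker Adgre1 was lower (-1.23 ± 0.45, adjusted p = 0.19). Cd14 and Ly86 were higher (1.43 and 0.65, adjusted p = 0.138 and 0.601), and none of these markers passed. F13a1, the coagulation factor XIII A chain of monocytes, was at -3.94, -5.56 and -4.46 in the MPPs and at 1.53, 2.15 and -0.80 in the B220+ cells (5.62 ± 0.83, adjusted p = 0.0105, lost at 0.0532 with the slide as a block and at 0.0503 without Bach2-vector replicate 2). With the control vector F13a1 was at 0.85, -1.36 and -0.55, overlapping the B220+ arrays. Csf1r, the receptor for the macrophage growth factor M-CSF, was at 2.34, -1.04 and -0.12 in the MPPs and 4.12, 3.69 and 3.52 in the B220+ cells without passing (3.38 ± 0.79, adjusted p = 0.0622, 0.0104 without Bach2-vector replicate 1). With the control vector it was at 3.67, 2.03 and 2.49. Of 2 dimmer Csf1r probes the lower passed (2.81 ± 0.61, adjusted p = 0.0491) and the other did not (0.32 ± 0.24, adjusted p = 0.455). Clec4b2, a C-type lectin of myeloid cells, was above background on 2 of 3 MPP arrays and rose from -5.24, -6.76 and -5.71 to 1.39, 2.54 and -0.74 (6.97 ± 0.82, adjusted p = 0.00381).

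Among 20 myeloid transcription regulators, 1 rose and 1 fell, against 1.32% and 2.58% of all genes (median 0.11). Bhlhe40, a repressor induced by many cytokines, fell from 2.84, 2.82 and 3.04 to -0.79, -0.60 and 0.43 (-3.22 ± 0.34, adjusted p = 0.00237). Klf4, a zinc-finger factor of monocytes, rose from 1.20, 0.14 and -0.21 to 4.90, 4.92 and 3.43 (4.04 ± 0.63, adjusted p = 0.0136, 0.0663 with the slide as a block and up to 0.061 without Bach2-vector replicate 2 or 3 or B220+ replicate 1 or 2). Among 15 cytokine receptors of myeloid cells, 1 rose and 1 fell, against 1.32% and 2.58% of all genes. Il6ra rose by 2.20 ± 0.43 (adjusted p = 0.0329) and the decoy receptor Il1r2 fell by 2.24 ± 0.40 (adjusted p = 0.0234). Both of these calls were lost with the slide as a block (0.0643 and 0.0698) and without single arrays (up to 0.119 for Il6ra without Bach2-vector replicate 2 and 0.0919 for Il1r2 without Bach2-vector replicate 3).

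Among the largest rises were also Slc16a14 and Dscam, which are on no list. Slc16a14, a monocarboxylate transporter family member, was not above background in the MPPs and was at -1.97, -2.77 and 0.60 in the B220+ cells, at least 38.0-fold higher, and met the filter on dim probes through the B220+ arrays only. Dscam, a cell adhesion molecule of the immunoglobulin family, was above background on 1 MPP array and rose by 5.97 ± 0.94 (adjusted p = 0.0144, 0.0643 with the slide as a block and up to 0.0638 without Bach2-vector replicate 2 or 3).

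The largest falls among the named genes were in Clca1 and Hic1. Clca1, a secreted regulator of chloride channels, was at 0.86, 2.16 and 2.43 in the Bach2-vector MPPs, at -4.24, -2.64 and -1.64 with the control vector and above background on no B220+ array, at least 276-fold lower than in the Bach2-vector MPPs (limma adjusted p = 0.000713). Hic1, a zinc-finger transcription repressor, was at 5.72, 5.00 and 5.34 in the Bach2-vector MPPs and at 3.60, 2.24 and 2.75 with the control vector, and fell to -4.23, -5.02 and -3.24 in the B220+ cells (-9.51 ± 0.50, 732-fold, adjusted p = 0.000141, -10.07 with the slide as a block). The B220+ cells were thus lowest of the 3 groups for both genes and the Bach2-vector MPPs highest.

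Spint1, an inhibitor of serine proteases, fell from 3.56, 2.65 and 3.11 to -5.15, -4.63 and -2.53 (-7.21 ± 0.68, adjusted p = 0.00165). Pdpn, which encodes the membrane glycoprotein podoplanin, fell by 7.16 ± 0.99 (adjusted p = 0.00759) and was above background on 1 of 3 B220+ arrays. Every B220+ array lay below every control-vector array for Spint1, and for Pdpn B220+ replicate 3 (-4.42) lay just above the lowest control-vector array (-4.68).

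Afp, the fetal serum protein alpha-fetoprotein, declined in steps across the groups, from 3.98, 4.13 and 3.58 with the control vector to -0.29, -0.53 and -1.97 with the Bach2 vector and -6.06, -6.71 and -8.65 in the B220+ cells (-6.21 ± 0.67 between the last pair of groups, adjusted p = 0.0025). Asb2, a ubiquitin ligase subunit, Khdc1a and Gsg1 fell by 6.64 ± 0.88, 6.54 ± 0.92 and 6.28 ± 0.84 (adjusted p = 0.00644, 0.00824 and 0.00669). Of the 3 B220+ arrays, Afp, Asb2 and Khdc1a were each above background on 1 and Gsg1 on 2, so the sizes of these falls rest partly on signals at background. The pseudogene Speer6-ps1 was above background on no B220+ array, at least 33.9-fold lower. Aldh1a3, a retinaldehyde dehydrogenase, fell by 6.39 ± 1.14 (adjusted p = 0.0239), a call lost with the slide as a block (0.107) and without any of the 3 Bach2-vector arrays (up to 0.0925).

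Conventional dendritic-cell and MHC class II genes gave 4 falls and 1 rise. Batf3, the AP-1 family factor that cross-presenting dendritic cells need, fell from 1.22, 0.43 and 1.66 to -3.44, -3.56 and -4.96, below the control-vector levels of 0.44, 0.17 and 1.49 (-5.09 ± 0.53, adjusted p = 0.00232). Ccl17, a dendritic-cell chemokine, fell from 4.55, 1.66 and 2.87 to -4.77, -5.18 and -2.12 (-7.05 ± 1.16, adjusted p = 0.0172, up to 0.0705 without Bach2-vector replicate 1 or 3 or B220+ replicate 1 or 2). Among 13 measured conventional dendritic-cell genes these were the 2 that fell, and none rose, against 2.58% and 1.32% of all genes (median -0.15). With the slide as a block 4 fell and 1 rose (Itgax, Batf3, Cd83 and Ccl17, and Cd209a), against 1.55% and 1.11% of all genes, and the median was 0.08. The list's mean level was 0.71, 0.11 and 0.48 in the Bach2-vector MPPs and -0.48, -0.40 and -0.59 in the B220+ cells. With the control vector it was -1.15, -1.48 and -0.66, below every B220+ array. Itgax, the CD11c integrin chain, was at 1.70, -1.05 and -0.42 in the MPPs and -2.24, -2.42 and -2.24 in the B220+ cells (-2.37 ± 0.74, adjusted p = 0.137, -3.82 and 0.00495 with the slide as a block). The other dendritic-cell markers Zbtb46 and Clec9a were at -3.23 to -2.53 and at -6.45 to -4.67 over both groups.

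Among 12 MHC class II genes, 2 fell and 1 rose (2.58% and 1.32% of all genes), and the median was -0.68. The list's mean level was 2.65, 1.91 and 2.60 in the Bach2-vector MPPs and 1.67, 1.69 and 1.88 in the B220+ cells. With the control vector it was 1.28, 1.05 and 1.58, below every B220+ array. H2-Ab1 was at 5.46, 5.24 and 6.11 in the MPPs and 3.29, 3.1 and 4.43 in the B220+ cells, and H2-Aa at 2.15, 1.66 and 2.59 against -0.56, 0.35 and 0.59, each with a difference of -2.0 (SE 0.41 and 0.43, adjusted p = 0.0395 and 0.0466). With the control vector H2-Ab1 was at 4.82, 4.97 and 5.42, above every B220+ array, and H2-Aa at 0.25, 0.44 and 1.36, overlapping them. Both calls were lost with the slide as a block (0.129 and 0.149), with median scaling and without each array but B220+ replicate 3 (up to 0.135 and 0.158). H2-Ob, a chain of the H2-O peptide-loading inhibitor that B cells express, went the other way, from -0.28, -0.59 and -0.23 to 2.09, 2.58 and 1.89 (2.55 ± 0.34, adjusted p = 0.00669).

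Plasmacytoid dendritic cells carry B220, so their genes were read separately. Siglech, the defining surface receptor, was at 5.23 to 6.22 in the MPPs and 5.47 to 5.70 in the B220+ cells on its brighter probe, and also at 4.91 to 6.10 with the control vector. A dimmer Siglech probe rose from -3.41, -3.96 and -4.81 to -0.51, -1.11 and -1.17 (3.13 ± 0.40, adjusted p = 0.0056), so the 2 probes disagreed. Tcf4 and Bst2 were high in all 6 arrays, at 2.63 to 3.95 and 5.51 to 6.29, and Ccr9 was at -4.13 to -2.88. A dimmer Tcf4 probe had a difference of 1.04 ± 0.45 (adjusted p = 0.246), against -0.59 ± 0.37 on the brighter probe (adjusted p = 0.373). Among 12 plasmacytoid dendritic-cell genes, 1 rose and 1 fell, against 1.32% and 2.58% of all genes. Cox6a2 rose by 4.51 ± 0.73 (adjusted p = 0.0153, 0.0553 without Bach2-vector replicate 2) and Tlr7 fell by 1.18 ± 0.25 (adjusted p = 0.048). Tlr7 was lost with the slide as a block (0.09), with median scaling and without each array but B220+ replicate 3 (up to 0.156), and a dimmer Tlr7 probe was at 0.30 (adjusted p = 0.661).

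The median difference of the 20 interferon-response genes was -0.76, and 2 of them fell while none rose, against 2.58% and 1.32% of all genes. With the slide as a block 1 fell, against 1.55% of all genes, and the median was -0.61. The list's mean level was 0.02, -0.23 and 0.76 in the Bach2-vector MPPs and -0.68, -0.45 and -1.38 in the B220+ cells. With the control vector it was -1.57, -1.69 and -0.91, overlapping the B220+ arrays. Gbp2, an interferon-induced GTPase, was high only in the Bach2-vector MPPs, at 3.59, 2.71 and 2.86 against -0.78, -1.28 and -0.78 with the control vector, and fell to -1.15, -0.77 and 0.87 in the B220+ cells (-3.40 ± 0.51, adjusted p = 0.0112, 0.0532 without B220+ replicate 2). Cxcl10, an interferon-induced chemokine, fell by 4.65 ± 0.99 and was above background on 1 B220+ array (adjusted p = 0.0457, 0.109 with the slide as a block and up to 0.146 without any Bach2-vector array or B220+ replicate 2).

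Of the 23 stem and multipotent progenitor genes, 3 fell while none rose (2.58% and 1.32% of all genes), and their median difference was -0.79. Relative to the median of all genes this was -0.54, also with median scaling, -0.26 with normexp background correction and -0.31 with the slide as a block. Mycn, a Myc family factor of progenitors, fell from 3.63, 4.80 and 5.45 to 0.47, 0.97 and 1.28 (-3.72 ± 0.63, adjusted p = 0.0187, -2.59 with the slide as a block and up to 0.0785 without Bach2-vector replicate 2 or 3 or B220+ replicate 1 or 2). Hlf, a PAR-domain factor of stem cells, fell from -0.75, -1.36 and -1.53 to -3.32, -3.65 and -3.38 (-2.24 ± 0.36, adjusted p = 0.0155, lost with median scaling and, up to 0.0667, without Bach2-vector replicate 2 or B220+ replicate 1 or 2). Nkx2-3, a homeobox factor, fell by 2.67 ± 0.45 (adjusted p = 0.0188, 0.0766 with the slide as a block and up to 0.0802 without Bach2-vector replicate 1 or 2 or B220+ replicate 1 or 2).

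Erythroid and megakaryocyte genes gave 2 falls among 20 (2.58% of all genes fell), with a median of -0.48. With the slide as a block 1 fell, against 1.55% of all genes. The median was then -0.06, which turned from -0.23 to 0.04 relative to that of all genes. Car2, the carbonic anhydrase of erythroid progenitors, fell from 4.32, 4.45 and 4.23 to 0.58, 0.91 and 1.44 (-3.36 ± 0.35, adjusted p = 0.00237). Pf4, a platelet chemokine, was at 2.96, 3.49 and 3.02 in control-vector MPPs and 0.54, 0.96 and 0.71 in Bach2-vector MPPs, and fell to -2.20, -5.58 and -3.63 in the B220+ cells (-4.54 ± 0.70, adjusted p = 0.0131, 0.0629 with the slide as a block and up to 0.0592 without Bach2-vector replicate 2 or 3). Gata1, the erythroid, mast-cell and basophil factor, was at -0.29, -0.93 and 2.46 in the B220+ cells and -2.09, 0.14 and 0.06 in the MPPs, with replicate 3 again the highest (adjusted p = 0.59).

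Of 25 heme, iron and oxidative-stress genes, a class that Bach factors are known to repress, 2 fell and none rose (2.58% and 1.32% of all genes). The list median was -0.57. Osgin1, an oxidative-stress-induced growth inhibitor, was at like levels in control-vector MPPs (0.73, -0.42 and -0.94) and Bach2-vector MPPs (0.95, -0.88 and -0.85) and fell to -5.12, -4.89 and -6.01 in the B220+ cells (-5.08 ± 0.61, adjusted p = 0.00414). Srxn1, the sulfiredoxin gene, stepped down from 3.82, 3.69 and 3.19 with the control vector to -0.10, -0.85 and -1.10 with the Bach2 vector and to -2.22, -2.99 and -2.85 in the B220+ cells. Its fall between the Bach2-vector groups was 2.00 ± 0.36 on the log2 scale (adjusted p = 0.0231, lost with median scaling and, up to 0.0904, without Bach2-vector replicate 1 or 2 or B220+ replicate 2).

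Both promoters held the AP-1 and Bach core TGANTCA, which 7.82% of all genes in the promoter table held. Osgin1 had 1 copy, 97 bases before its start, and Srxn1 had 2, 102 and 45 bases before its start. The 250 bases are printed for Osgin1 (chr8:119436897-119437146, plus strand) and Srxn1 (chr2:152105274-152105523, plus strand) because these are the only genes of their list that passed, with the core in capitals:
Osgin1: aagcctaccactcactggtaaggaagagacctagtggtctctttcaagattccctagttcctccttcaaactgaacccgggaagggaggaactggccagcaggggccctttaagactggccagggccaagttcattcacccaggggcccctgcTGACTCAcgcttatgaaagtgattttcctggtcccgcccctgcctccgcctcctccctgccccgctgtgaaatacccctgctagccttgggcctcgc
Srxn1: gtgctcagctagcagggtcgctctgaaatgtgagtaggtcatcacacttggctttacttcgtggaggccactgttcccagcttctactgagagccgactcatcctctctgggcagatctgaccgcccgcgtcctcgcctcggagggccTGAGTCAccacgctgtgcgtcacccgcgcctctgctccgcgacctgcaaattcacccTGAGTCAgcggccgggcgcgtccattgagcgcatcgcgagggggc

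Among the other lists, Gbp2 and Cxcl10 also held the AP-1 and Bach core, 102 and 74 bases before their starts, and Il6ra and the long noncoding RNA Morrbid held the C/EBP palindrome, 116 and 88 bases before theirs. Morrbid, which restrains the pro-apoptotic gene Bcl2l11 in short-lived myeloid cells, was at 0.93, 0.31 and 0.25 in control-vector MPPs, -1.32, -2.87 and -2.88 in Bach2-vector MPPs and -4.25, -4.97 and -4.46 in the B220+ cells. It fell by 2.21 ± 0.45 (adjusted p = 0.0405), a call lost without any 1 of the 6 arrays (up to 0.133) and held with the slide as a block (0.0103). Bcl2l11 did not pass (-0.62 ± 0.45, adjusted p = 0.441), and Morrbid was the only 1 of 14 genes of the Bcl2 family list that did. Of all genes, 1.32% rose and 2.58% fell.

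**Figure D4:**
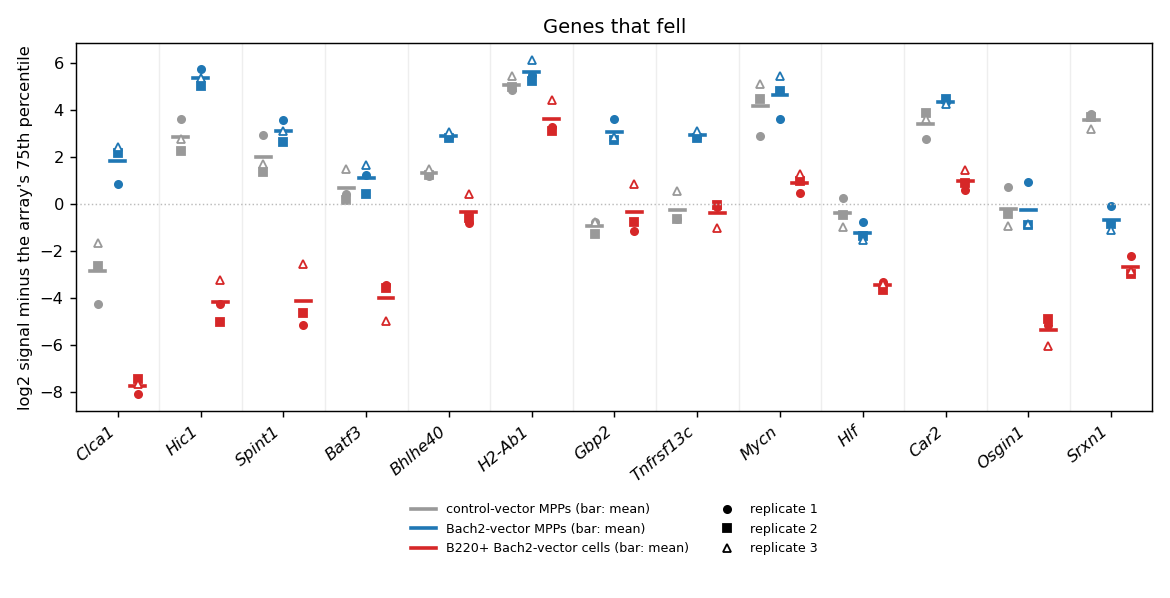
Log2 signal minus the array's 75th percentile (vertical axis) for 13 genes that fell, in control-vector MPPs, Bach2-vector MPPs and B220+ Bach2-vector cells, with 1 symbol for each replicate and a bar at the mean of 3 arrays. Every B220+ array lies below every Bach2-vector MPP array for each gene, and Gbp2 and Tnfrsf13c in the B220+ cells lie near the control-vector levels.

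Some genes of hypoxia and secretion also moved. Vegfa, the angiogenic growth factor that hypoxia induces, rose from 1.16, 1.08 and 1.66 to 3.90, 4.50 and 3.73 (2.74 ± 0.30, adjusted p = 0.00254), while a dimmer Vegfa probe was at 0.77 (adjusted p = 0.435). Ankrd37, a hypoxia-induced gene, rose by 1.77 ± 0.32 (adjusted p = 0.0245, up to 0.0942 without Bach2-vector replicate 2 or B220+ replicate 1 or 2). Of 21 glycolysis and hypoxia-response genes, 2 rose and none fell, against 1.32% and 2.58% of all genes. The other 19 did not pass, and the median was -0.09. Sdc1, the plasma-cell marker syndecan 1, rose by 2.94 ± 0.45 (adjusted p = 0.0129, 0.0526 with the slide as a block and up to 0.0586 without Bach2-vector replicate 2 or 3 or B220+ replicate 2). Fkbp11, a chaperone of secretory cells, fell by 2.98 ± 0.52 (adjusted p = 0.0207, 0.0859 with the slide as a block and up to 0.0845 without Bach2-vector replicate 2 or 3 or B220+ replicate 1 or 2).

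No gene passed among 27 of DNA replication and mitosis (median -0.24), 18 of cell-cycle inhibition and p53 (-0.02), 18 of cholesterol synthesis and uptake (0.04) and 9 Bach, Nrf and small Maf factors (-0.19). Among all genes tested, 1.32% passed as higher and 2.58% as lower. At an unadjusted p under 0.05, 3829 of all 17008 genes differed.

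**Figure D5:**
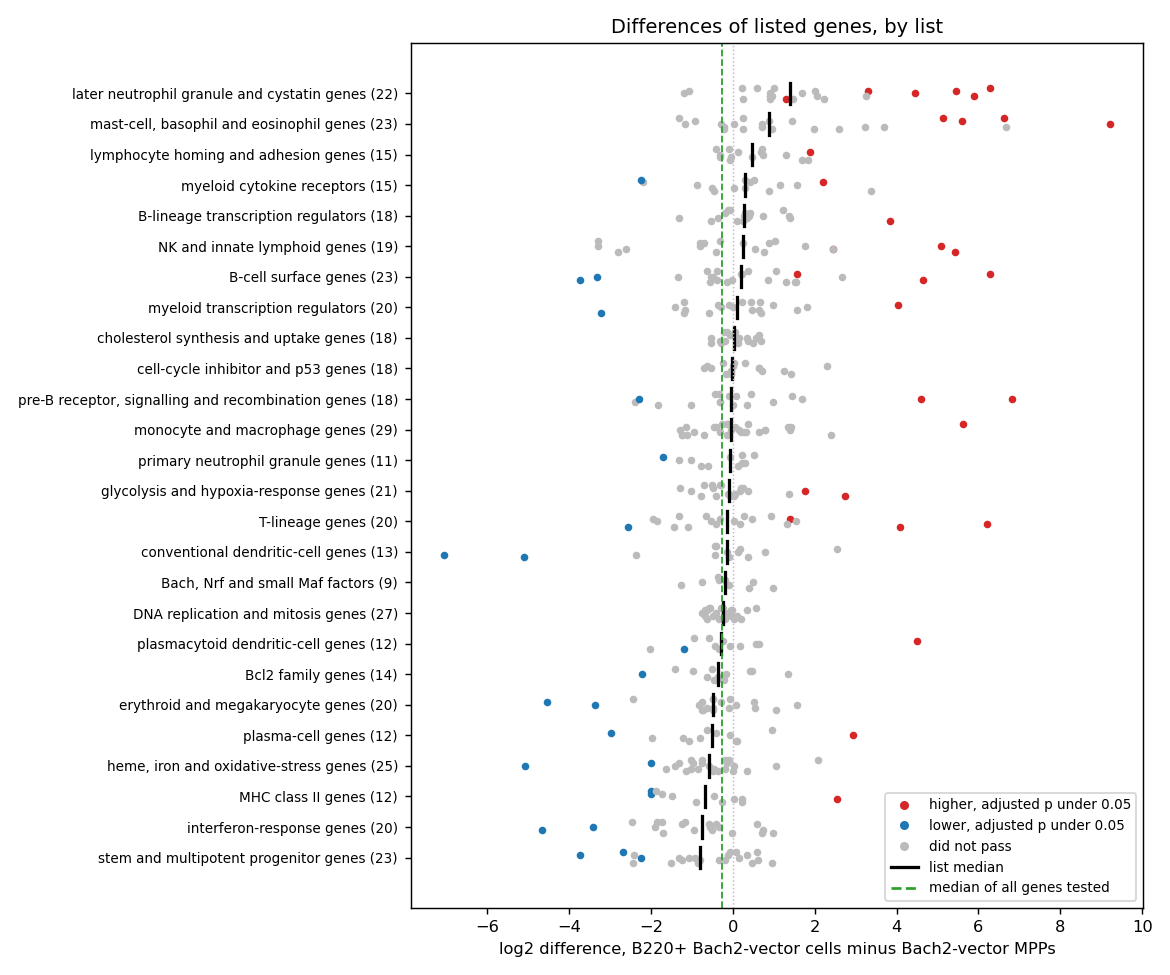
Each point is a gene of 1 of 26 lists, with its log2 difference (B220+ Bach2-vector cells minus Bach2-vector MPPs) on the horizontal axis, and list names carry the number of genes measured. Coloured points passed at an adjusted p under 0.05, black bars are list medians and the dashed line is the median of all genes (-0.25), from which the medians of the later neutrophil granule genes (1.39) and the stem and multipotent progenitor genes (-0.79) differ, an order of lists that changes with the slide as a block.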

How the data were processed

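Total RNA of each sample was measured on a 1-colour Agilent mouse array with 62976 features, 3671 of them controls. The deposited files give each spot's intensity (processed signal, background-subtracted with spatial detrending) from Feature Extraction. Its version is 10.7.3.1 per the file headers and 9.1 per the submitters' processing notes. For the same arrays the deposited value table held the same intensity values (0 cells differed), and 12 of its columns, of samples in other groups, were not used. Outlier-marked spots were left out, signals were taken as log2 minus the array's 75th percentile, and spots of a probe were averaged. A probe was tested where it was well above background on at least 3 of the 9 MPP arrays with 2 or more values per group (43426 of 55681 probes). limma 3.58.1 (R 4.3.3) fitted group means over the 9 arrays and tested B220+ minus Bach2-vector, with Benjamini-Hochberg adjustment over all tested probes and a threshold of 0.05. Of all probes, 26413 matched 20018 gene symbols through unversioned RefSeq accessions and 29268 stayed unnamed. Each gene was represented by its brightest probe, judged by the mean over the 9 arrays, and no named gene had passing probes of opposite sign.

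The comparison, the gene lists and the rule for named genes were chosen with earlier results of these data known. Named were the Bach factors, the defining markers, the 12 largest non-overlapping rises and the 12 largest such falls, and up to 6 genes of smallest p in each of 26 lists; 31 passing genes without a plain name were counted only. The normexp alternative used the median foreground signal (offset 50), in place of the planned mean signal, because the files used here gave no mean signal. Same-numbered arrays of the 2 groups deviated together only weakly (correlations 0.05, 0.10 and 0.05), and numbers were not taken as pairs. These correlations cannot exclude pairing, because Bach2-vector replicate 1 lay on another slide than replicates 2 and 3. The B220+ arrays shared 1 slide. The test was checked on simulated data with independent noise on each array and no slide effect. The check therefore does not cover the slide or the shift of B220+ replicate 3. Promoter sequences were those of RefSeq on GRCm38.p6. Figures were drawn with matplotlib 3.10.9. Some items withheld for evaluation are not reported here.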

Additional observations from a re-analysis of the deposited data

How the results depend on the processing

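All values in this paragraph count probes or genes at an adjusted p under 0.05, or log2 differences, from limma. With the slide as a block 429 probes and 263 genes were lower. With only the 6 compared arrays in the fit, 644 probes passed (250 higher, 394 lower) and 395 genes (149 higher, 246 lower), and 373 of the 662 calls were kept. Normexp background correction gave 734 higher probes and 357 higher genes and kept 576 calls. Quantile normalization gave 637 higher probes and kept 592 calls. Median scaling gave 770 higher probes and 352 higher genes and kept 491 calls. The mean over a gene's probes gave 1039 genes, 713 of them lower. Leaving out 1 array gave 447 to 1948 probes (153 to 753 higher, 262 to 1195 lower) and 276 to 1063 genes (92 to 366 higher, 168 to 697 lower), with the highest count without B220+ replicate 3. The replicate number as a block, which the check of pairing could neither bear out nor exclude, gave 824 genes and kept 604 calls. Among named genes this block ended the calls of Tlr7 (0.0587) and Cd3d (0.0613) and gave 13 further calls. These included Csf1r (0.0231), Hdc (0.0262), H2-Eb1 (0.0268), S100a8 (0.0451), Usp18 (0.0247) and Oasl1 (0.0158). Ddx3y was low in replicate 3 of all 3 groups (-9.09, -9.32 and -8.69), a hint from the data that numbers may mark shared experiments. The value of Siglech turned from -0.24 to 1.44 (adjusted p = 0.0217) with the mean over its probes, because its probes differed. The deposited value table gave the same values, and keeping outlier spots, a variance trend, no filter on dim probes and a filter on all 9 arrays kept 653, 641, 511 and 465 of the 662 calls. The cause of these shifts was not tested. Signal over background limits the 19 risen genes below background on every Bach2-vector array and the 89 fallen genes below it on every B220+ array, whose fold changes are bounds.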
